A study of Mus musculus with 8 samples.

Results

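The genes described here encode adhesion molecules that the vessel wall presents to leukocytes, together with the chemokine receptor gene Ackr1. They are the 9 genes Icam1, Icam2, Vcam1, Sele, Selp, Ackr1, Madcam1, Alcam and Cd34, taken by symbol from the authors' deposited table of 48404 genes, where each matched 1 entry. The table compares microvessels, the small vessels of the brain, from 4 libraries of mice with tMCAO (transient middle cerebral artery occlusion, a stroke model that stops and later restores flow in a large brain artery) and from 4 libraries of sham-operated mice. All mice were wild-type C57BL6, and age, sex, the length of the occlusion and the time of sampling are not stated in the labels. The table holds 1 log2 fold change (log2FC) and 1 p-value per gene, so values per library, sequencing depth and overlap between the groups were not analysed here.

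Leukocytes leave the blood by steps. Selectins on the endothelium catch and roll them, chemokines displayed on the vessel wall activate their integrins, and immunoglobulin-like ligands of the ICAM and VCAM kind then bind those integrins and hold the cells firmly before they cross. P-selectin is stored in endothelial granules and in platelets, while E-selectin and much of ICAM-1 and VCAM-1 are made anew when cytokines such as TNF and interleukin-1 act on endothelium through NF-kappaB. ACKR1 is an atypical receptor of venular endothelium that binds inflammatory chemokines without classical signalling and carries them to the luminal surface. Venules are the usual site of this traffic, and brain endothelium at rest is known to show little of it.

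Of the 9 genes, 7 had a deposited p-value, read as Benjamini-Hochberg adjusted, and 4 of these were higher after tMCAO at an adjusted p under 0.05. The 4 were Ackr1, Sele, Icam1 and Cd34, and none of the 7 was lower. Set against the median of endothelial markers, Cd34 and Alcam were called lower, as were 71.1% of all tested genes. At an unadjusted p under 0.05, recovered from the authors' test, 5 of the 7 were higher, Icam2 being the fifth, and 0 were lower. Over all 19294 genes with a p, 15.2% were called higher and 17.6% lower at an adjusted p under 0.05, 32.8% in either direction. The share of all genes at the unadjusted threshold was not counted, so 5 of 7 has no background to be read against. The median log2FC was 0.67 over the 7 tested genes and -0.0008 over all tested genes. Icam2, Vcam1 and Alcam were not called, and Selp and Madcam1 have a fold change without a p. In bulk vessel preparations, fewer cells of a type and less RNA per cell cannot be told apart. All 20 endothelial identity markers had a p, but with no levels in the table the labelled tissue could not be checked against them further. The file does not say which group is the numerator. Values above 0 were taken to mean higher after tMCAO, since the injury genes Lif and Hmox1 carried log2FC values of 5.14 and 3.81 in the authors' deposited table.

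**Figure D1:**
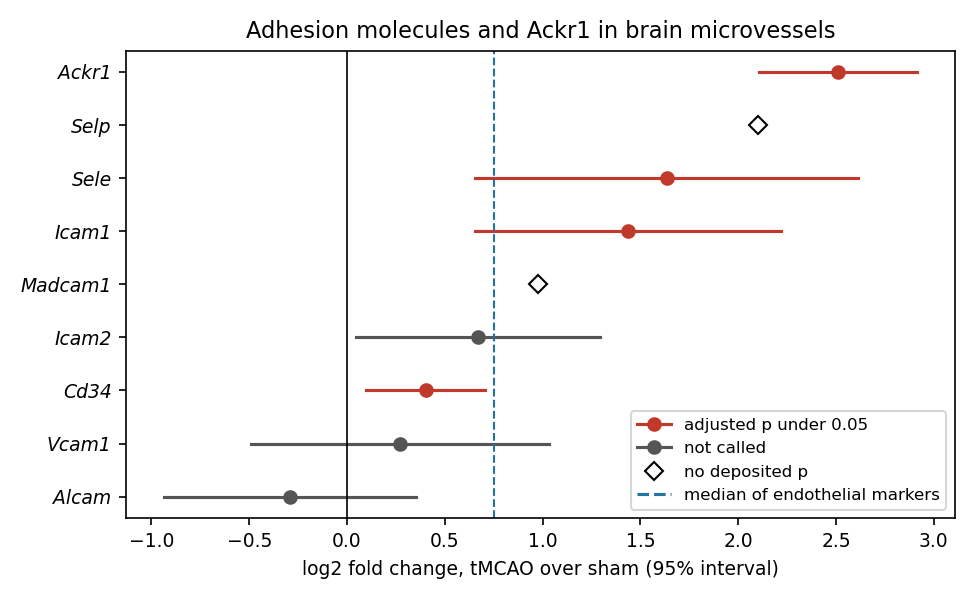
Log2FC (tMCAO over sham, x axis) of each of the 9 genes (y axis), with 95% intervals from standard errors that the deposited p-values imply. Red points passed an adjusted p of 0.05, grey points did not, and open diamonds have no deposited p. Ackr1 lies highest at 2.51 and Alcam lowest at -0.29. The dashed line is the median of the endothelial identity markers at 0.75, against which Icam2, Cd34, Vcam1 and Alcam lie on the lower side.

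The upstream sequences of the members that moved most, and of Madcam1, are shown because NF-kappaB sites in such promoters are known from studies of cultured endothelium. RefSeq promoters of build GRCm38.p6, running from 250 bases before to 50 after the start site, matched 7 of the 9 members. Icam2 and Vcam1 were not matched. The 250 bases before the start are printed 5′ to 3′ along the gene's strand, with matches to the kappaB motif GGGANNNNCC or the shorter form GGAANTTCC, on either strand, in capitals. The regions are chr1:173333504-173333753 on the minus strand for Ackr1, and on the plus strand chr1:164115014-164115263 for Selp, chr1:164047984-164048233 for Sele, chr9:21015690-21015939 for Icam1 and chr10:79664309-79664558 for Madcam1.
Ackr1: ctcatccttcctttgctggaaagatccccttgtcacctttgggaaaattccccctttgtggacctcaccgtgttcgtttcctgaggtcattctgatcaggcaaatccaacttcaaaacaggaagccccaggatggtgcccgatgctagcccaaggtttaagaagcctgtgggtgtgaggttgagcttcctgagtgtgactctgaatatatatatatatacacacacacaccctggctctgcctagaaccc
Selp: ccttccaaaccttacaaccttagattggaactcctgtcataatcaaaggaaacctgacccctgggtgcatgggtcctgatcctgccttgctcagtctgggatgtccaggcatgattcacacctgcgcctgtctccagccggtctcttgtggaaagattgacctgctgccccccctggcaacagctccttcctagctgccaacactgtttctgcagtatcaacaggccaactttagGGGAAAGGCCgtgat
Sele: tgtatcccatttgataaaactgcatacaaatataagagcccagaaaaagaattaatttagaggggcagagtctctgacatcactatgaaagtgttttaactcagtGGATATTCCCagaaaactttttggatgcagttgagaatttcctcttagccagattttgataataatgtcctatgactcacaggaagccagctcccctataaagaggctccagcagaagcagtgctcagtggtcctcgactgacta
Icam1: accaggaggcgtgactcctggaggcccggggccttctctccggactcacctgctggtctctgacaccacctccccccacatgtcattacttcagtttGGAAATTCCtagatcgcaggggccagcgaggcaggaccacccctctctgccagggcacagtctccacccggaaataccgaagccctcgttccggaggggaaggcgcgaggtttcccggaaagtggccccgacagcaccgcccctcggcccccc
Madcam1: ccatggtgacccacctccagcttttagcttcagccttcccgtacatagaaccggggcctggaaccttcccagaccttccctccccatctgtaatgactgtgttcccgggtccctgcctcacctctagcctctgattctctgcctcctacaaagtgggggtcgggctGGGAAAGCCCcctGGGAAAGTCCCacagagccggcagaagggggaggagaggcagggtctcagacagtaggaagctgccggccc

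In these windows GGGANNNNCC was found in 4 of 7 members, Selp, Sele, Madcam1 and Cd34, and in 20.7% of all 32851 promoters in the RefSeq table. The Sele match begins at position -145 from the start site, on the opposite strand, and overlaps a match to TTCNNNGAA, the GAS form bound by STAT factors. The Selp match begins at -15. Madcam1 held 3 matches, at positions -84, -71 and -70, and those at -71 and -70 overlap each other on opposite strands. The Cd34 match begins at position 2 and is not within the printed stretch. Icam1 had no match to GGGANNNNCC and 1 to GGAANTTCC, a form added after the promoters were read, which 0.928% of all promoters held. Its match begins at -153. Neither form was found in Ackr1, the member with the largest fold change, or in Alcam. The printed Ackr1 sequence does hold the similar run gggaaaattcccc, which fits neither form. Looser kappaB forms were not searched, so the absence of a match does not show that either promoter lacks a kappaB-like stretch.

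AGGAAG, a core bound by ETS factors, which are prominent in endothelial promoters, was searched on both strands in the same windows and found in 6 of 7 members, all but Icam1, and in 35.4% of all promoters, with 3 matches in Ackr1.

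The AP-1 site TGANTCA was found in Selp and Sele, against 7.81% of all promoters, and the GAS form was found in Sele and Icam1, against 8.30% of all promoters. No overlap other than those named was seen among the matches. A match is only a run of letters, and no binding was measured.

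**Figure D2:**
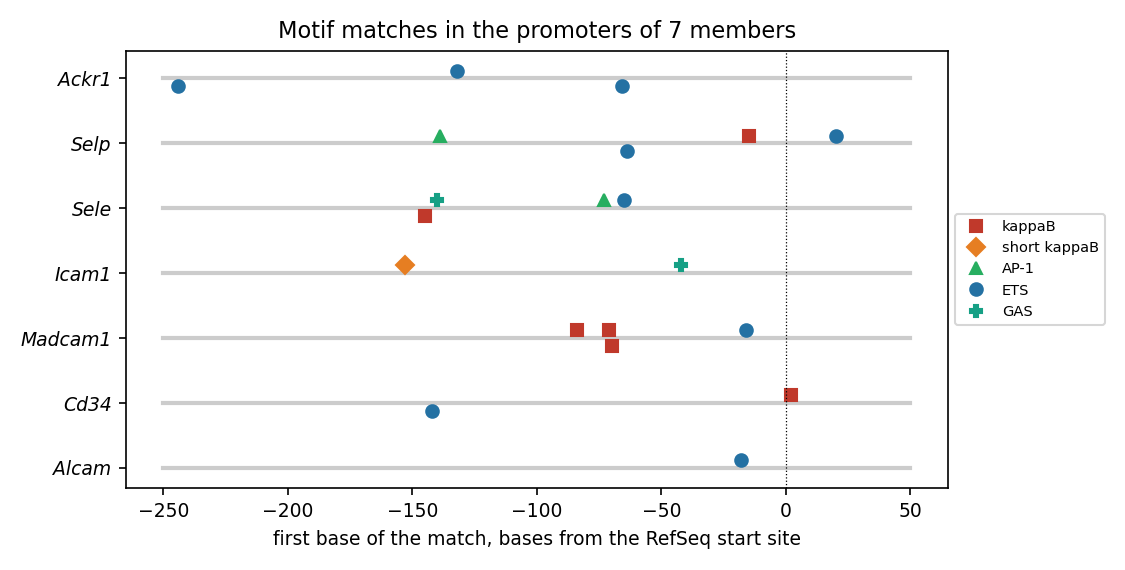
Positions of the motif matches (x axis, bases from the RefSeq start site) in the promoters of 7 members (y axis). Symbols above a line are on the gene's strand and symbols below it on the opposite strand. Matches to GGGANNNNCC (red squares) lie in Selp, Sele, Madcam1 and Cd34, and the match to GGAANTTCC (orange diamond) lies in Icam1.

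Ackr1, the chemokine-binding receptor, had the largest fold change of the 9. It was 5.69-fold higher after tMCAO, per the authors' deposited table (log2FC 2.51 with an implied standard error, SE, of 0.21, adjusted p = 1.34e-30). Its approximate 95% interval on the log2 scale was 2.10 to 2.91, or 4.30-fold to 7.54-fold. Its adjusted p was the ninth smallest, rank 9, of all 19294 tested genes, although its log2FC ranked 97. The implied SE of Ackr1 was close to the middle of the table, with 47.0% of tested genes having a smaller one.

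Sele, which encodes E-selectin, the cytokine-induced selectin of endothelium, was 3.10-fold higher after tMCAO by the authors' deposited table (log2FC 1.63, implied SE 0.50, adjusted p = 0.0056). The interval for Sele was wide, 0.66 to 2.61 on the log2 scale, and 99.6% of tested genes had a smaller implied SE. As a fold, the interval spans 1.58-fold to 6.11-fold. Selp, which encodes P-selectin, had a log2FC of 2.10, or 4.30-fold, in the authors' deposited table, the second highest of the 9, with no p-value. Among the 12322 genes that have a fold change and no p, 26 had a value at or above that of Selp, 20 of them protein-coding. Both counts include Selp itself. Why such genes lack a p is not given in the sources used here, so neither an error nor a call can be attached to Selp.

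Icam1, the ligand of leukocyte integrins of the beta-2 class, was 2.71-fold higher after tMCAO by the authors' deposited table (log2FC 1.44, implied SE 0.40, adjusted p = 0.0022), with an interval of 0.65 to 2.22 on the log2 scale. Icam2, a ligand of the same integrins that endothelium carries constitutively, had a log2FC of 0.67 (implied SE 0.32, adjusted p = 0.091) in the authors' deposited table. The interval of Icam2, 0.047 to 1.30 on the log2 scale and not corrected for the number of genes, overlapped that of Icam1, and the difference between these members was not tested.

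Vcam1, the ligand of the integrin alpha-4 beta-1, had a log2FC of 0.27 (implied SE 0.39, adjusted p = 0.63) in the authors' deposited table. Its interval ran -0.49 to 1.03 on the log2 scale, so the data allow anything from 0.713-fold to 2.04-fold. That interval overlapped those of Icam1 and Sele and lay wholly below that of Ackr1. Madcam1, the mucosal addressin that binds integrin alpha-4 beta-7 and is best known from gut venules, had a log2FC of 0.98 without a p in the authors' deposited table. Of the genes without a p, 97.7% had a lower value than Madcam1.

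Alcam, an adhesion molecule that binds CD6 and is also known from neurons, was the member with a value below 0, with a log2FC of -0.29 (implied SE 0.33, adjusted p = 0.53) in the authors' deposited table and an interval of -0.94 to 0.35. Cd34, a sialomucin of capillary endothelium that can act as a selectin ligand when suitably glycosylated, was 1.32-fold higher after tMCAO by the authors' deposited table (log2FC 0.40, implied SE 0.15, adjusted p = 0.032). The call of Cd34 was lost when the p was read as unadjusted and adjusted again (adjusted p = 0.11). It was also lost at a threshold of 0.01 or when a log2FC of at least 1 was required. Set against the median of endothelial markers Cd34 was lower at -0.35 (adjusted p = 0.034). Against the median of ribosomal protein genes it was lower at -0.48 (adjusted p = 0.0027). Of all tested genes, 71.1% and 77.3% were called lower in these settings. Cd34 had the smallest implied SE of the 7, and its interval of 0.10 to 0.71 lay wholly below that of Ackr1.

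In order of log2FC, the tested members ran Ackr1, Sele, Icam1, Icam2, Cd34, Vcam1 and Alcam. The intervals of each pair of neighbours in this order overlapped. The interval of Ackr1 overlapped those of Sele and Icam1 and not those of Icam2, Cd34, Vcam1 and Alcam. The intervals of Sele and Icam1 both lay above that of Alcam, and overlapped those of the other members. These intervals treat the genes as independent, though all were measured in the same libraries.

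**Figure D3:**
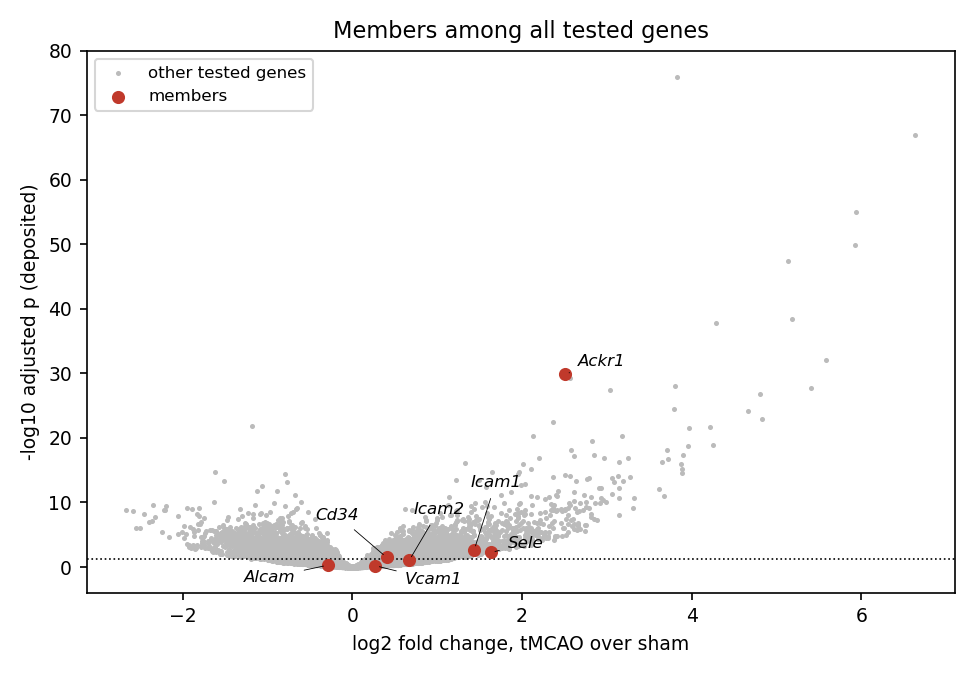
Deposited adjusted p as -log10 (y axis) against log2FC (tMCAO over sham, x axis) for all 19294 tested genes in grey, with the 7 tested members in red. The dotted line is an adjusted p of 0.05. Ackr1 stands among the genes with the smallest p, while Sele and Icam1 lie at larger p for their fold change.

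The direction of some members depends on what they are set against. Endothelial identity markers, a list of 20 genes without any of the 9 members, were higher in 13 of 20 tested and lower in none. Their median log2FC was 0.75, in a range of -0.29 to 1.18. The 7 not called ran from Slco1a4 at -0.29 to Cldn5 at 0.47 in the authors' deposited table, a stretch that holds Cd34 at 0.40. In the authors' deposited table Emcn, an endothelial sialomucin, rose by 1.14 on the log2 scale, Eng, the endoglin gene, by 1.17, Egfl7 by 1.04 and the guidance receptor gene Robo4 by 0.89. Set against that median, Ackr1 had a log2 value of 1.76 and was still called, whereas Sele at 0.88 (adjusted p = 0.099 with the implied SE) and Icam1 at 0.69 (adjusted p = 0.11) were not. On that scale Cd34 was lower at -0.35 (adjusted p = 0.034) and Alcam lower at -1.04 (adjusted p = 0.0026). Icam2 at -0.080 and Vcam1 at -0.48 lay below 0 without being called. The same centring called 71.1% of all 19294 tested genes lower and 2.23% higher.

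Markers of venous and venular endothelium, the home of Ackr1 and of the selectins, were higher in 5 of 10 tested genes and lower in 1, leaving out the 4 members on that list, with a median log2FC of 0.91. Tmem252 rose by 2.86, Lrg1 by 2.65 and Il1r1, the receptor through which interleukin-1 acts, by 1.22 in log2FC in the authors' deposited table. The von Willebrand factor gene Vwf, not among the 4 smallest p-values and picked after its value was known, rose by 1.05 in the authors' deposited table. Car4, better known from capillaries than from veins, was the gene called lower, and the authors' deposited table gives it a log2FC of -0.53 (adjusted p = 0.00054).

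The chemokines that ACKR1 binds were higher in 8 of 10 tested genes and lower in none, with a median log2FC of 2.34. Cxcl3, Cxcl2 and Cxcl1, ligands that draw neutrophils, were 28.4-fold, 25.3-fold and 18.5-fold higher after tMCAO by the authors' deposited table. Ccl11, the eosinophil chemokine eotaxin, was 14.8-fold higher by the authors' deposited table (adjusted p = 5.8e-16). Of the other atypical chemokine receptors, 1 of 3 tested genes was higher and 1 lower. In the authors' deposited table Ackr3, which scavenges CXCL12, rose by 0.76 on the log2 scale (adjusted p = 0.025), Ackr2, which scavenges inflammatory CC chemokines, had a log2FC of -1.02 (adjusted p = 0.010), and Ackr4 had one of 1.03 that was not called (adjusted p = 0.11).

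Counter-receptors that leukocytes use to bind the 9 molecules were higher in 8 of 15 tested genes and lower in 2, with a median log2FC of 0.85. In the authors' deposited table Cd44, a hyaluronan receptor that can bind E-selectin, rose by 2.85 on the log2 scale, Itgam by 1.91 and Itgb2 by 1.36. Itgam and Itgb2 encode integrin chains that together bind ICAM-1. Among the genes called lower, picked after their values were known, were Glg1, which encodes an E-selectin ligand of the Golgi, at -0.50 and Itga4, the alpha chain of the VCAM-1 receptor, at -0.40 in the authors' deposited table. Selplg, the P-selectin ligand gene, picked after its value was known, was not called, with -0.71 in log2FC in the authors' deposited table (adjusted p = 0.12). Itgam, Itgb2 and Selplg are also expressed by microglia, whose markers were lower in 6 of 10 tested genes and higher in none (median -0.97). The part of microglia in these values was not tested.

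**Figure D4:**
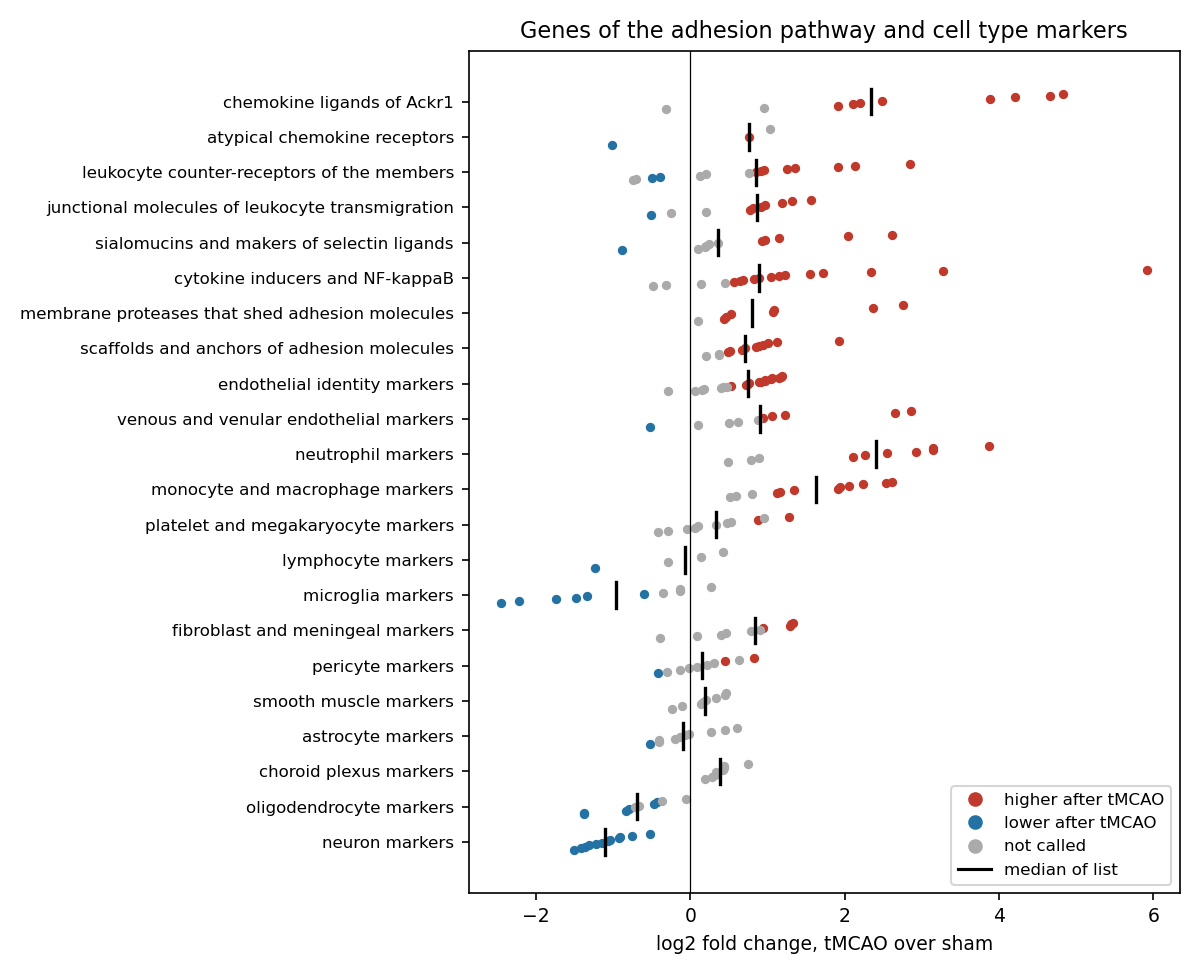
Log2FC (tMCAO over sham, x axis) of the tested genes of 22 lists (y axis), the 9 members left out, coloured by call, with a black bar at each list's median. Values are as deposited, and set against the endothelial markers each would lie 0.75 lower. Chemokine ligands of Ackr1 have a median of 2.34 and neutrophil markers one of 2.40, whereas all 12 neuron markers were lower.

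Junctional molecules that leukocytes meet while crossing endothelium were higher in 7 of 10 tested genes and lower in 1 (median 0.87). In the authors' deposited table Pvr, the poliovirus receptor gene, rose by 1.31 on the log2 scale, Epha2 by 1.56 and Nectin2 by 0.82, while Cd99l2, a molecule of transendothelial passage, had a log2FC of -0.51. Scaffold and anchor genes, whose products tether ICAM-1 and VCAM-1 to the actin skeleton or cluster them, were higher in 10 of 13 and lower in none (median 0.70). Moesin, Msn, rose by 1.93, and the cortactin gene Cttn by 0.85, Actn1 by 0.70 and Rhog by 0.52 on the log2 scale in the authors' deposited table.

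Sialomucin genes and enzymes that build selectin ligands were higher in 5 of 11 tested genes and lower in 1 (median 0.36). Fut4, a fucosyltransferase used in making selectin ligands by leukocytes, was 6.10-fold higher and Glycam1, a mucin of lymph node venules, 4.10-fold higher after tMCAO by the authors' deposited table. Podxl2, a sialomucin gene, had a log2FC of -0.89 in the authors' deposited table. Proteases that shed adhesion molecules from the cell surface, counted together with Rhbdf2, were higher in 7 of 8 tested genes and lower in none (median 0.80). Adam8 was 5.16-fold and Mmp9 6.74-fold higher by the authors' deposited table, and Rhbdf2, which brings ADAM17 to the surface, and Adam9 rose by 1.08 and 0.53 on the log2 scale.

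Genes of cytokines, their receptors and NF-kappaB, with its inhibitors Nfkbia and Tnfaip3, were higher in 13 of 17 tested genes and lower in none (median 0.88). Il1a at -0.49, Il1rap at -0.31, Ikbkb at 0.14 and Irf1 at 0.45 in the authors' deposited table were not called. Il6 was 60.6-fold, Il1b 9.65-fold, Tnf 5.06-fold and the TNF receptor gene Tnfrsf1a 3.28-fold higher after tMCAO by the authors' deposited table. All of these lists were chosen with earlier results of the comparison known, and their counts are read against the 15.2% of tested genes called higher. Some lists share genes, so their counts are not independent. Cdh5, Esam and Pecam1, for example, are in both the junctional and the endothelial list. As deposited, 18 of the 23 lists had a median above 0. The number was 10 against the endothelial median and 4 when values were set against ribosomal protein genes, whose median log2FC was 0.89. The 4 lists above 0 in both cases were the chemokine ligands of Ackr1 and the neutrophil, monocyte and venular markers. The venular median was only 0.16 against endothelial markers and 0.020 against ribosomal protein genes, the latter with 2 genes higher and 2 lower. The endothelial list is among the 23 and could not lie above its own median.

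Markers of other cells that could carry the members' transcripts were measured in the same comparison. Neutrophil markers were higher in 7 of 10 tested genes and lower in none, with log2FC values from 0.49 to 3.87. Among them, Trem1 rose by 3.87 in the authors' deposited table, Il1r2 and Cxcr2 by 3.15 and 3.14, and S100a8 by 2.92. Monocyte and macrophage markers were higher in 9 of 12 and lower in none, from 0.51 to 2.61, with F10 at 2.61, Cd14 at 2.54 and Fcgr1 at 1.16 in the authors' deposited table. Platelets store P-selectin, and their markers were higher in 2 of 11 tested genes, Pf4 at 1.27 and Itga2b at 0.88 in the authors' deposited table, and lower in none (range -0.42 to 1.27). Their part in the value of Selp was not tested.

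Fibroblast and meningeal markers, from cells that can express Vcam1 and Alcam, were higher in 4 of 10 tested genes and lower in none (range -0.40 to 1.33), with Col3a1 at 1.33, Dcn at 1.31, Lum at 1.29 and Mgp at 0.94 in the authors' deposited table. Pericyte markers were higher in 2 of 10, Kcnj8 at 0.83 and Abcc9 at 0.45, and lower in 1, Cspg4 at -0.42, in the authors' deposited table. Smooth muscle markers were called in 0 of 8 and choroid plexus markers in 0 of 8, and both counts were also 0 at an unadjusted p under 0.05 recovered from the authors' test. Astrocyte markers were higher in 0 of 10 and lower in 1, Fgfr3, at -0.52 in the authors' deposited table. Markers of lymphocytes had a p in 4 of 12 genes, of which Cd4 was lower at -1.24 in the authors' deposited table and none was higher. Neurons also express Alcam and the Icam1 neighbour Icam5, and their markers were lower in 12 of 12 tested genes (range -1.50 to -0.52), Syt1 at -1.50 and Nefl at -1.31 in the authors' deposited table among them. Oligodendrocyte markers were lower in 6 of 10 and higher in none (median -0.69). Where a list had none called higher or none called lower, the count at that unadjusted p was also 0, except for the platelet marker Gp1bb, lower, and the astrocyte marker Sox9, higher, both picked after their values were known. The part of these cell types in the members' values was not tested.

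Several members sit in gene clusters. In the GENCODE M21 annotation of GRCm38, Sele lies on chromosome 1 from 164048234 to 164057677 and Selp from 164115264 to 164150026, both on the plus strand. Both had values above 0, 1.63 for Sele and 2.10 for Selp on the log2 scale in the authors' deposited table, the value of Selp without a p. F5, the coagulation factor V gene beyond Selp, had a log2FC of 0.69 that was not called (adjusted p = 0.31), and Scyl3, BC055324 and Mettl18 on the other side lay between -0.049 and 0.12 in the authors' deposited table and were not called.

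Icam1 lies on chromosome 9 from 21015985 to 21028817 on the plus strand, followed by Icam4 and Icam5. Neither of these related genes was called higher. Icam4, known from red cells in humans, had a log2FC of -0.35 (adjusted p = 0.58) and Icam5, the telencephalin gene of forebrain neurons, was lower at -1.17 (implied SE 0.24, adjusted p = 2.94e-05) in the authors' deposited table. On its other side the nearest gene, Mrpl4, which encodes a mitochondrial ribosomal protein, had 0.049 in log2FC and was not called (adjusted p = 0.72) in the authors' deposited table. Farther out, S1pr2, a sphingosine-1-phosphate receptor gene picked after its value was known, rose by 0.98 (adjusted p = 0.011) in the authors' deposited table. Within 100 kb of any member, 42 other genes were tested, with a median log2FC of -0.046. Of these, 6 were higher and 6 lower, 14.3% each, against 15.2% and 17.6% of all tested genes.

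**Figure D5:**
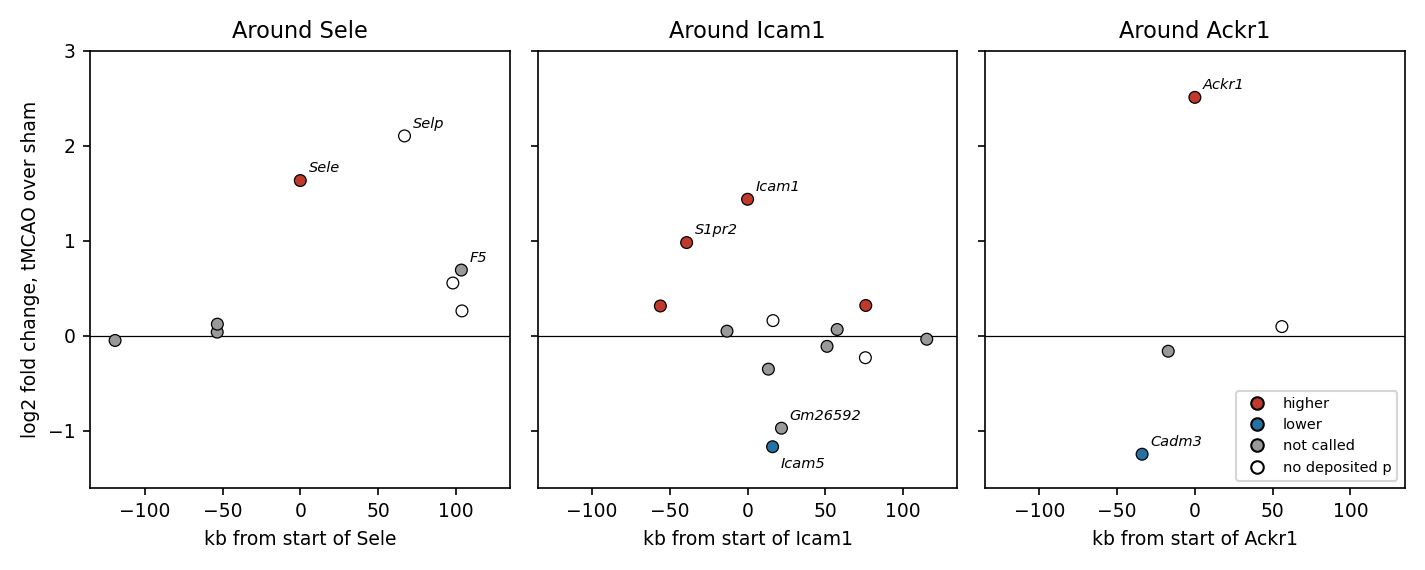
Log2FC (tMCAO over sham, y axis) of the genes reported here within 100 kb of Sele, Icam1 and Ackr1, placed by the distance between start sites in kb along the member's strand (x axis). Red points were higher, blue lower and grey not called, and white points have no p. Sele lies at 1.63 and Selp at 2.10, while Icam5 at -1.17 and Cadm3 at -1.25 lie opposite Icam1 and Ackr1.

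Some members overlap other genes, and whether reads were counted by strand is not given in the sources used here. Ackr1 lies on chromosome 1 from 173331886 to 173333750 on the minus strand. It is overlapped by the span of Cadm3, a neuronal adhesion gene on the same strand whose start lies upstream, at -33.9 kb. Cadm3 was lower, opposite to Ackr1, and the authors' deposited table gives it a log2FC of -1.25 (adjusted p = 0.00026). How reads in the stretch that these genes share were assigned is not given in the sources used here. Selp overlaps the opposite-strand genes Gm16587 and Gm16548, Vcam1 overlaps Gm43109 and Cd34 overlaps Gm16897, with log2FC values of 0.56, 0.26, 0.36 and 0.34 in the authors' deposited table. Gm16897 was not called (adjusted p = 0.51), and the other 3 have no p. Whether reads from these members were told apart from those of their opposite-strand partners is therefore not known. Of the rest, Icam2 lies on chromosome 11 from 106377656 to 106388075 on the minus strand, Vcam1 on chromosome 3 from 116109949 to 116129688 on the minus strand and Madcam1 on chromosome 10 from 79664559 to 79668537 on the plus strand. Alcam, the longest member, spans chromosome 16 from 52248996 to 52454074 on the minus strand, and Cd34 chromosome 1 from 194938819 to 194961279 on the plus strand. No other gene with a fold change overlapped Sele, Icam1, Icam2, Madcam1 or Alcam.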

How the data were processed

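RNA depleted of ribosomal RNA was sequenced from brain microvessels in 4 tMCAO and 4 sham libraries, per the labels' protocols. Tools listed in the submitters' processing notes are bcl2fastq 2.19, cutadapt, STAR, HTSeq and DESeq2, with GRCm38 (mm10), and no roles or options. The labels do not say whether a group's libraries are separate mice, so p-values cover the spread between libraries, technical or not. The authors deposited a log2 fold change and a p-value per gene, per the file headers, and 0 columns of values per library were used. The other deposited sheets repeat these values for protein-coding genes with a Z-score that is a linear rescaling of the log2 fold change, hold no values per library and were not used. Depth is unknown, so precision rests on implied errors.

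The authors' deposited p-values were taken to be Benjamini-Hochberg adjusted, since 3214 values recur in more than 1 gene. Each was turned back into an unadjusted p by its rank, and the log2 fold change was divided by the matching two-sided normal deviate, which yields an implied standard error. This assumes fold changes that were not shrunken towards 0, which is not stated. The arithmetic of the recovery was tested on simulated data with normal errors, which does not test these assumptions. The 9 members, the 23 lists and the rule for named genes (every member, up to 4 genes with the smallest adjusted p under 0.05 per list, or the smallest where none passed, and all family neighbours and atypical receptors) were chosen with earlier results of these data known. With 1 fold change per gene, no genes of like pattern could be named. Gene IDs matched GENCODE M21 for 48044 of 48404 genes, and promoters are from RefSeq (GRCm38.p6). Python 3.11.15, pandas 2.3.3 and scipy 1.17.1 were used. Alternatives were the reading of the p, a threshold of 0.01, a log2 fold change of at least 1 in size, protein-coding genes alone and 3 centrings. Some genes are not reported here by name, though the counts over lists and neighbours include them.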

Additional observations from a re-analysis of the deposited data

How the results depend on the processing

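The calls of Ackr1, Sele and Icam1 held, and Icam2, Vcam1 and Alcam stayed uncalled, when the p was read as unadjusted and adjusted again, at 0.01, with a log2 fold change of 1 or more in size, over protein-coding genes alone and centred on all tested genes. Cd34 at 0.40 lost its call in the first 3 of these (adjusted p = 0.11 when adjusted again, 0.032 as deposited). Centred on endothelial markers, 1 member was called higher (Ackr1) and 2 lower: Sele was 0.88, Icam1 0.69, Icam2 -0.080, Vcam1 -0.48, Alcam -1.04 and Cd34 -0.35, with Selp at 1.35 and Madcam1 at 0.23. Centred on ribosomal protein genes, the counts were again 1 and 2, with Sele 0.75, Icam1 0.55, Icam2 -0.22, Vcam1 -0.62, Alcam -1.18, Cd34 -0.48, Selp 1.22 and Madcam1 0.090. These centrings lower every gene by 0.75 or 0.89, and of 19294 tested genes they called 13716 and 14905 lower, and they ignore the error of the centre. No paired analysis was possible because the groups share no replicate number and the table holds no values per library. For the same reason leaving out each library was not run, and whether 1 library decides a value is not known.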
